A study of Mus musculus with 4 samples.

Results

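The genes described here are 40 germ cell genes of the mouse, 25 that act in meiotic prophase or in entry into it and 15 other genes of the germ line, read in RNA from embryonic lymphatic endothelial cells (LECs). They were chosen by symbol, as the rows of the normalized count table whose Ensembl identifier belongs to a listed gene in GENCODE, and all 40 were found among 55385 gene rows. The list itself was drawn up after meiotic genes had been seen among the larger decreases between the same 2 groups of libraries. The differences between groups given for these 40 genes are therefore a description, and no p-values are printed for them. Calls given for them rest on limma adjusted p-values from the same contrast, so they are labels and not tests. The number and direction of these differences are what the choice selected for.

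The question put to these libraries was how loss of Osr1, a transcription factor of embryonic connective tissue, alters the transcriptome of LECs. At embryonic day E13.5, CD45− PDPN+ CD31+ cells were sorted from peripheral trunk tissue, from which limbs, tail, inner organs and cranial tissue (in the study, that above the tongue) had been taken, and each of 4 libraries held the cells of 8 to 10 pooled embryos. The 2 genotypes had 2 libraries each. Osr1GCE/GCE embryos, labelled Osr1-KO, carry on both copies of Osr1 an allele in which a fusion of eGFP, Cre and a ligand-binding domain disrupts the gene, and Osr1controls are Osr1+/+ and Osr1GCE/+ embryos in the study and wild type in the labels. The sex of the pooled embryos is not stated in the labels or the study. The labels do not say that replicates came from separate litters or sorts, so the adjusted p-values of genes outside the 40 measure only the spread between these libraries.

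In the table each value is a read count per gene divided by a size factor of its library, called a normalized count here. Libraries labelled Osr1GCE/GCE held 37865172 and 31586765 reads in genes, and Osr1controls held 53438492 and 36535451. Osr1 itself had 168 and 303 normalized counts in the libraries labelled Osr1GCE/GCE, against 32.8 and 30.4 in Osr1controls (log2 fold change 2.80 ± 0.31 SE, limma adjusted p = 0.0262), and the sources used here do not say which Osr1 exons the allele still transcribes. The mutant libraries are therefore named by their label throughout. Of 5 LEC markers 3 (Flt4, Pdpn and Mmrn1) were called higher in the libraries labelled Osr1GCE/GCE, against 1.13% of all tested genes, and all 5 had log2 fold changes above 0. The summed level of the 5 was 2587 and 2497 TPM there, against 1428 and 1981 TPM in Osr1controls, where TPM is a transcript's share of its library corrected for gene length. Of 19479 genes that averaged 10 or more normalized counts, 341 were called lower and 221 higher in the libraries labelled Osr1GCE/GCE, which makes 60.7% of calls lower, against 49.5% under TMM scaling and 70.9% under scaling to library totals. A call needed a limma adjusted p under 0.05, a log2 fold change of 0.3 or more in size and a mean TPM over 1.

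Meiosis is the pair of divisions by which germ cells become haploid, and its long prophase is the stage at which homologous chromosomes pair, synapse and recombine. In the mouse fetus, germ cells of the ovary enter meiotic prophase at about the stage sampled here under the control of STRA8, whereas germ cells of the testis stop dividing, do not enter meiosis and switch on Nanos2. These genes have no known role in LECs and most are silent in somatic cells, where many are kept off by methylation of promoters rich in CpG and by repressor complexes that include E2F6. CD31, one of the antigens used in the sort, is also carried by fetal germ cells.

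Promoter sequences are shown for the 4 meiotic genes with the lowest fold changes and for Taf7l, the lowest of the other germ cell genes. They come from RefSeq on GRCm38.p6, cover the 250 bases before the annotated start, and run 5′ to 3′ along the gene's strand. Capitals mark matches, on either strand, to CACGTG (the E-box letters), to GCGGGAA (letters bound by E2F factors) or to CNCCTCAG (letters reported for STRA8).
Sycp2: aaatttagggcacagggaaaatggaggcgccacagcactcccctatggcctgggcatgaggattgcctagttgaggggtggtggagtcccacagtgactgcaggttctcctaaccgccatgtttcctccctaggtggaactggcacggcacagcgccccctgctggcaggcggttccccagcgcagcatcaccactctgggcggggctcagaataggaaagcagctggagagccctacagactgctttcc
Sycp1: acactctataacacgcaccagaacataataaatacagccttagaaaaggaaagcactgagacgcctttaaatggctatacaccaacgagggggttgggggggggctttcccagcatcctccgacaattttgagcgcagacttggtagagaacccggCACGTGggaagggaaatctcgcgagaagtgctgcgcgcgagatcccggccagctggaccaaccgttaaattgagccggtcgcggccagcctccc
Ankrd31: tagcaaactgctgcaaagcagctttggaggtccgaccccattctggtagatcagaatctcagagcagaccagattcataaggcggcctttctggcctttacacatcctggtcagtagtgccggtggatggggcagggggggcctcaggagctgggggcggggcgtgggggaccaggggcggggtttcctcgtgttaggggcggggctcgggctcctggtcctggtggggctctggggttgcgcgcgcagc
Tex12: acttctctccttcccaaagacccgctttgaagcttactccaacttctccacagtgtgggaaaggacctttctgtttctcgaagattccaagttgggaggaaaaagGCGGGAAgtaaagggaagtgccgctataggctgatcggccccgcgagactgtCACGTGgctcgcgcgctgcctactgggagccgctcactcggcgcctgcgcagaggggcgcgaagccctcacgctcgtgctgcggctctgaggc
Taf7l: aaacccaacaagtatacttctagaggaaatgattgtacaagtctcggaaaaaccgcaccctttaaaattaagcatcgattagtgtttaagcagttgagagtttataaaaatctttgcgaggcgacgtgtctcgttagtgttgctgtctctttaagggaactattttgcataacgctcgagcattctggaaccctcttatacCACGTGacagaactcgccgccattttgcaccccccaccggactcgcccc
The windows lie at chr2:178407659-178407908 on the minus strand for Sycp2, chr3:102936101-102936350 on the minus strand for Sycp1, chr13:96748043-96748292 on the plus strand for Ankrd31, chr9:50561269-50561518 on the minus strand for Tex12 and chrX:134476491-134476740 on the minus strand for Taf7l. Sycp1, Tex12 and Taf7l each held 1 E-box match, Tex12 also held 1 E2F match, and the windows of Sycp2 and Ankrd31 held none of the 3 strings. The 5 windows held 7 CpG in Sycp2, 17 in Sycp1, 12 in Ankrd31, 20 in Tex12 and 14 in Taf7l.

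Of the 40 genes 35 had a promoter in the table, and Spo11, Dppa3, Tex11, Tex15 and Piwil2 had none. An E-box match stood in 5 of 22 promoters of meiotic genes (22.7%) and in 5 of 13 of the other germ cell genes (38.5%), against 7.96% of 12726 promoters of the other tested genes and 6.05% of all 27025. The E2F letters stood in 6 of 22 (27.3%) and 2 of 13 (15.4%), against 6.56% of the other tested genes and 3.84% of all. The STRA8 letters stood in 2 of 22 (9.09%) and 2 of 13 (15.4%), against 7.05% of the other tested genes and 6.39% of all. The median number of CpG per window was 12 in meiotic genes and 11 in the other germ cell genes, against 15 in the other tested genes and 6 over all promoters. These are counts of letters, and a match is not evidence of binding. The members lay on 17 chromosomes, with at most 4 on any one, and Tex11 and Taf7l lay on the X chromosome.

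All 40 genes passed the filter on low values in these sorted LEC libraries. Over the 4 libraries their mean level ran from 1.09 TPM for Mei1 to 238 TPM for Dppa3, with a median of 16.0 TPM. The 25 meiotic genes together held 7250 and 8870 reads in the libraries labelled Osr1GCE/GCE and 32896 and 23845 in Osr1controls. Between groups, the 25 meiotic genes had a median log2 fold change of -1.42, with a range of -1.96 for Sycp2 to -0.20 for Spo11, and all 25 were below 0. The 15 other germ cell genes had a median of -1.02, with 13 below 0. That median was -0.62 without the second Osr1controls library and -1.36 without the first. The median of all tested genes was -0.02, and 52.8% of them were below 0. In bulk RNA, fewer cells of a type and less of the transcript in each cell cannot be told apart.

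Calls were made for 15 of the 25 meiotic genes and 5 of the 15 other germ cell genes, all lower in the libraries labelled Osr1GCE/GCE, against 1.75% of all tested genes called lower and 1.13% called higher. Both libraries labelled Osr1GCE/GCE lay below both Osr1controls for 23 meiotic genes and 12 of the others, an arrangement that 28.9% of tested genes showed. Both lay above Osr1controls for Nanos2 alone, an arrangement of 24.7% of tested genes. The groups overlapped for Spo11, Prdm9, Tdrd5 and Nanos3. Since the rule drew on this contrast, nothing is read from these counts.

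**Figure D1:**
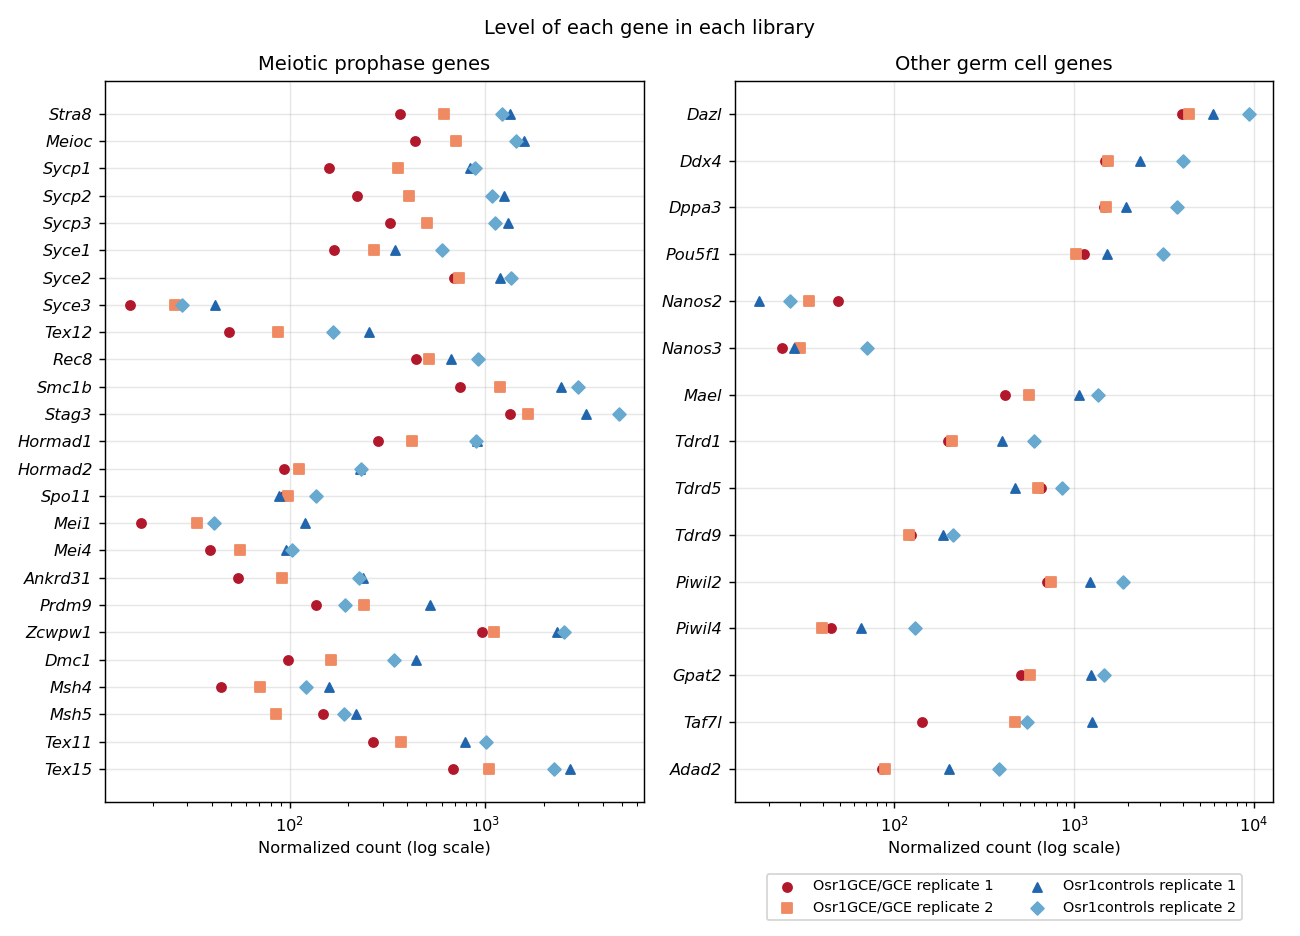
Normalized count of each of the 40 genes (log axis) in each library, with meiotic prophase genes on the left and other germ cell genes on the right. Most rows show both libraries labelled Osr1GCE/GCE left of both Osr1controls, as for Sycp2 with 221 and 406 against 1255 and 1086, and Nanos2 shows the opposite arrangement.

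Entry into meiosis was represented by Stra8 and Meioc. Stra8, the retinoic acid-induced factor that switches on the meiotic programme, had 367 and 617 normalized counts in the libraries labelled Osr1GCE/GCE, against 1337 and 1218 in Osr1controls. Meioc, which stabilises the meiotic programme after entry, had 438 and 712 normalized counts in the libraries labelled Osr1GCE/GCE, against 1588 and 1443 in Osr1controls. Their log2 fold changes were -1.42 ± 0.24 and -1.44 ± 0.23 (SE, n = 2 libraries a group, as for all fold changes here). Each SE is the moderated one of limma, for which the spread of a gene is drawn toward a trend over all tested genes. Neither gene had a library of one group within the range of the other. Stra8 lies on chromosome 6, 34920163 to 34939344 (mm10), and Meioc on chromosome 11, 102663716 to 102682237.

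The synaptonemal complex is the protein ladder that holds homologous chromosomes together, with SYCP2 and SYCP3 on the chromosome axes, SYCP1 across the middle and SYCE1, SYCE2, SYCE3 and TEX12 in the central element. Sycp2 had 221 and 406 normalized counts in the libraries labelled Osr1GCE/GCE, against 1255 and 1086 in Osr1controls (log2 fold change -1.96 ± 0.29). Its fold change was the lowest of the 25 meiotic genes, and it lies on chromosome 2, 178345293 to 178407685. Sycp1 had 159.6 and 358 normalized counts in the libraries labelled Osr1GCE/GCE, against 835 and 893 in Osr1controls (log2 fold change -1.85 ± 0.40), with the libraries labelled Osr1GCE/GCE 1.16 log2 units apart from each other, and it was not called. Sycp3 had 326 and 502 normalized counts in the libraries labelled Osr1GCE/GCE, against 1314 and 1121 in Osr1controls. Of its exon bases 52.2% overlap exons of Chpt1 on the opposite strand, and Chpt1 averaged 638 normalized counts. The sources used here do not state whether counting used strand, so the counts of Sycp3 are uncertain. Sycp3 and Sycp2 were called and their groups were apart.

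Of the 4 central element genes 2 were called. Tex12 had 48.9 and 86.7 normalized counts in the libraries labelled Osr1GCE/GCE, against 254 and 166 in Osr1controls (log2 fold change -1.64 ± 0.33). Syce2 had 691 and 738 normalized counts in the libraries labelled Osr1GCE/GCE, against 1189 and 1364 in Osr1controls (log2 fold change -0.83 ± 0.12), and like Tex12 it was called. Syce1 had 169 and 269 normalized counts in the libraries labelled Osr1GCE/GCE, against 346 and 604 in Osr1controls. Syce3 had 15.2 and 26.0 normalized counts in the libraries labelled Osr1GCE/GCE and 41.3 and 28.3 in Osr1controls, among the lowest counts of the list. Neither Syce1 nor Syce3 was called.

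Meiotic cohesin rings and the HORMA-domain proteins form the axis from which chromatin loops extend. Smc1b, a subunit of meiotic cohesin, had 745 and 1194 normalized counts in the libraries labelled Osr1GCE/GCE, against 2455 and 2972 in Osr1controls. Stag3, another of its subunits, had 1333 and 1661 normalized counts in the libraries labelled Osr1GCE/GCE, against 3284 and 4855 in Osr1controls, the highest count of the 25 genes. HORMAD1 and HORMAD2 mark axes that have not synapsed. Hormad1 had 282 and 422 normalized counts in the libraries labelled Osr1GCE/GCE, against 909.5 and 898 in Osr1controls. Hormad2 had 93.4 and 111 normalized counts in the libraries labelled Osr1GCE/GCE, against 229 and 231 in Osr1controls. These 4 genes were called, and their groups did not overlap. Rec8, the kleisin subunit, had 442 and 515 normalized counts in the libraries labelled Osr1GCE/GCE, against 672 and 916 in Osr1controls (log2 fold change -0.72 ± 0.17) and was not called, and its decrease was the smallest of the 5 axis genes.

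Recombination starts with double-strand breaks made by SPO11 at sites that PRDM9 marks. Spo11 had 93.4 and 97.9 normalized counts in the libraries labelled Osr1GCE/GCE, against 88.3 and 136 in Osr1controls, so the groups overlapped and the log2 fold change was -0.20 ± 0.27. Prdm9 had 137 and 240.3 normalized counts in the libraries labelled Osr1GCE/GCE, against 519.9 and 192 in Osr1controls, again with overlap, and the Osr1controls libraries were further apart from each other than the group means. Zcwpw1, which reads the marks of PRDM9, had 961 and 1116 normalized counts in the libraries labelled Osr1GCE/GCE, against 2329 and 2539 in Osr1controls. Its log2 fold change was -1.23 ± 0.11, with the smallest moderated standard error of the 40 genes. Of its exon bases 8.22% overlap Pilra on the opposite strand. Ankrd31, which helps to place breaks, had 54.3 and 91.7 normalized counts in the libraries labelled Osr1GCE/GCE, against 236 and 226 in Osr1controls (log2 fold change -1.70 ± 0.27), and of these 6 genes of break formation it and Zcwpw1 were called. Mei4 and Mei1 are both needed for break formation. Mei4 had 39.1 and 55.7 normalized counts in the libraries labelled Osr1GCE/GCE, against 96.2 and 103 in Osr1controls. Mei1 had 17.4 and 33.4 normalized counts in the libraries labelled Osr1GCE/GCE, against 120.4 and 40.8 in Osr1controls (log2 fold change -1.50 ± 0.56), and its first Osr1controls library stood far above the other libraries.

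Breaks are then repaired by strand exchange with the homologue. Dmc1, the meiotic strand-exchange recombinase, had 97.7 and 162 normalized counts in the libraries labelled Osr1GCE/GCE, against 444 and 342 in Osr1controls (log2 fold change -1.62 ± 0.27). Tex15, which is needed for loading recombinases, had 682 and 1044 normalized counts in the libraries labelled Osr1GCE/GCE, against 2725 and 2259.6 in Osr1controls. Tex11, an X-linked gene of recombination and synapsis, had 267 and 370.4 normalized counts in the libraries labelled Osr1GCE/GCE, against 785 and 1010.0 in Osr1controls. All 3 were called. Msh4 and Msh5 encode a pair that stabilises crossover intermediates. Msh4 had 44.5 and 70.6 normalized counts in the libraries labelled Osr1GCE/GCE, against 158 and 121 in Osr1controls. Msh5 had 148 and 85.5 normalized counts in the libraries labelled Osr1GCE/GCE, against 219 and 190.5 in Osr1controls. Neither was called, and Msh5 was the only one of the 25 genes whose second library labelled Osr1GCE/GCE lay below the first.

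**Figure D2:**
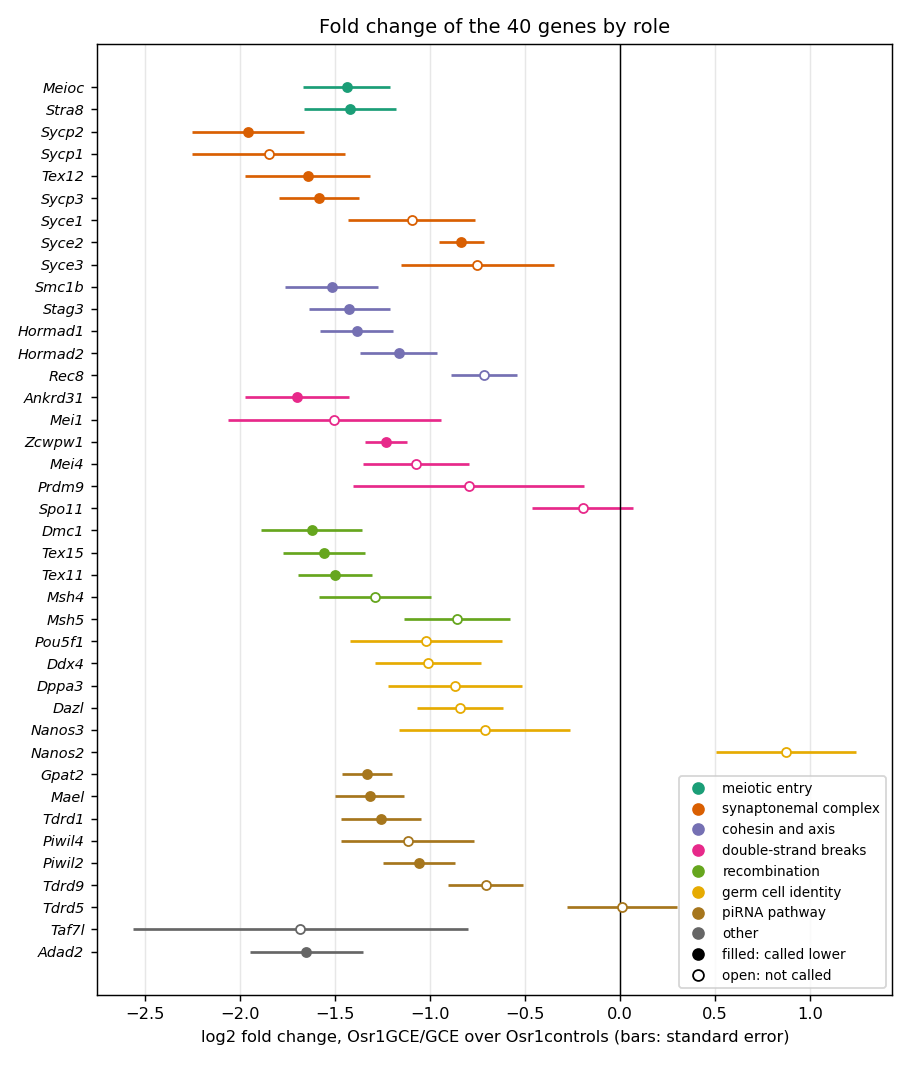
Log2 fold change of each of the 40 genes, Osr1GCE/GCE over Osr1controls, with bars of moderated standard error and colours for role. Filled points are the 20 genes called lower, the 25 meiotic genes all lie left of 0, and Nanos2 and Tdrd5 alone lie right of 0.

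Among the other germ cell genes, 6 belong to germ cell identity and 7 to the piRNA pathway. Dazl, an RNA-binding protein that licenses germ cells for sexual development, had 3959 and 4357 normalized counts in the libraries labelled Osr1GCE/GCE, against 5926 and 9356 in Osr1controls. Ddx4, a helicase of germ granules, had 1487 and 1543 normalized counts in the libraries labelled Osr1GCE/GCE, against 2314 and 4021 in Osr1controls. Their log2 fold changes were -0.84 ± 0.22 and -1.01 ± 0.28, and neither was called by the main limma fit. Dazl was called lower with the replicate number as a block (0.493% of all genes were) and by DESeq2 (4.4%). Ddx4 was called in neither of these settings. Dppa3, a maternal-effect gene of primordial germ cells, had 1458 and 1505 normalized counts in the libraries labelled Osr1GCE/GCE, against 1952 and 3742 in Osr1controls. Pou5f1, the pluripotency factor OCT4, had 1129 and 1029 normalized counts in the libraries labelled Osr1GCE/GCE, against 1524 and 3132 in Osr1controls. In all 4 the second Osr1controls library was highest by a margin larger than that between the libraries labelled Osr1GCE/GCE. Dppa3 and Pou5f1 have processed pseudogenes in the mouse genome, so their counts are less certain. Of Pou5f1 exon bases 14.1% overlap an antisense gene that averaged 5.89 normalized counts.

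Nanos2, a repressor of meiosis in male germ cells, had 48.9 and 33.4 normalized counts in the libraries labelled Osr1GCE/GCE, against 17.8 and 26.2 in Osr1controls (log2 fold change 0.87 ± 0.37). It was the one gene of the 40 with both libraries labelled Osr1GCE/GCE above both Osr1controls, and it was not called. Of its exon bases 49.0% overlap an antisense gene that averaged 0.628 normalized counts. Nanos3, which protects migrating germ cells, had 23.9 and 29.7 normalized counts in the libraries labelled Osr1GCE/GCE and 27.8 and 70.1 in Osr1controls, with overlap between groups.

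The piRNA pathway silences transposons in the germ line. Mael, a component of the granules where piRNAs are made, had 410.4 and 561 normalized counts in the libraries labelled Osr1GCE/GCE, against 1059.8 and 1350.1 in Osr1controls. Gpat2, an acyltransferase-family protein needed for piRNA production, had 504 and 569.8 normalized counts in the libraries labelled Osr1GCE/GCE, against 1246 and 1460.0 in Osr1controls (log2 fold change -1.33 ± 0.13). Both had groups apart by more than the spread within them. Tdrd1, a Tudor-domain scaffold, had 198 and 211 normalized counts in the libraries labelled Osr1GCE/GCE and 398 and 601 in Osr1controls. Piwil2, a PIWI protein that binds piRNAs, had 708 and 742 normalized counts in the libraries labelled Osr1GCE/GCE and 1226 and 1856 in Osr1controls. These 2 were called with Mael and Gpat2. Piwil4, the nuclear PIWI protein of fetal male germ cells, had 44.5 and 39.6 normalized counts in the libraries labelled Osr1GCE/GCE and 65.5 and 129.8 in Osr1controls. Tdrd9, a helicase that works with it, had 124 and 120.2 normalized counts in the libraries labelled Osr1GCE/GCE and 187 and 212 in Osr1controls. Neither was called, though their groups did not overlap. Tdrd5, the single gene of the pathway that did not separate, had 651 and 626 normalized counts in the libraries labelled Osr1GCE/GCE, against 467 and 858 in Osr1controls, and its log2 fold change of 0.01 ± 0.29 was -0.06 under scaling to library totals.

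Taf7l, an X-linked variant of a general transcription factor subunit, had 142 and 467 normalized counts in the libraries labelled Osr1GCE/GCE, against 1257 and 546 in Osr1controls. The log2 fold change was -1.68 ± 0.88, with the highest moderated standard error of the 40 genes, and it was not called. Adad2, a testis-expressed double-stranded RNA-binding protein, had 85.8 and 89.2 normalized counts in the libraries labelled Osr1GCE/GCE, against 202 and 379.9 in Osr1controls, with the groups apart and a call.

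Per length, in TPM, 4 of the genes were set beside the paralogues or partners that dividing somatic cells use. Smc1b reached 11.3% and 18.6% of Smc1a in the libraries labelled Osr1GCE/GCE, against 41.8% and 53.0% in Osr1controls. Stag3 reached 38.5% and 50.6% of Stag1, against 106% and 152% in Osr1controls. Of Stag2 it reached 20.0% and 25.9% in the libraries labelled Osr1GCE/GCE, against 63.2% and 92.1% in Osr1controls. In each of these pairs the groups did not overlap. Smc1b and Stag3 were chosen from this contrast, and 28.9% of tested genes had both libraries labelled Osr1GCE/GCE below both Osr1controls. Nothing is therefore read from the separation of these ratios. For Rec8 the share of Rad21 was 4.65% and 5.69% in the libraries labelled Osr1GCE/GCE, against 8.62% and 10.4% in Osr1controls. Taf7l reached 14.3% and 46.8% of Taf7, against 111% and 48.2% in Osr1controls, so the groups nearly met. Of 11 counterparts tested, 0 were called by limma, while edgeR called 0 and DESeq2 called 1 higher. In limma 1 of the 11 had an unadjusted p under 0.05, against 4169 of all 19479 tested genes. Log2 fold changes were 0.18 for Smc1a, -0.12 for Smc3, 0.16 for Rad21, 0.10 for Stag1 and 0.32 for Stag2 among cohesin subunits. They were 0.01 for Msh3, -0.47 for Msh6, -0.18 for Taf7 and 0.04 for Mad2l1, and the median of the 11 was 0.01. The adjusted p-values of limma ran from 0.0782 for Stag2 to 0.988 for Msh3.

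**Figure D3:**
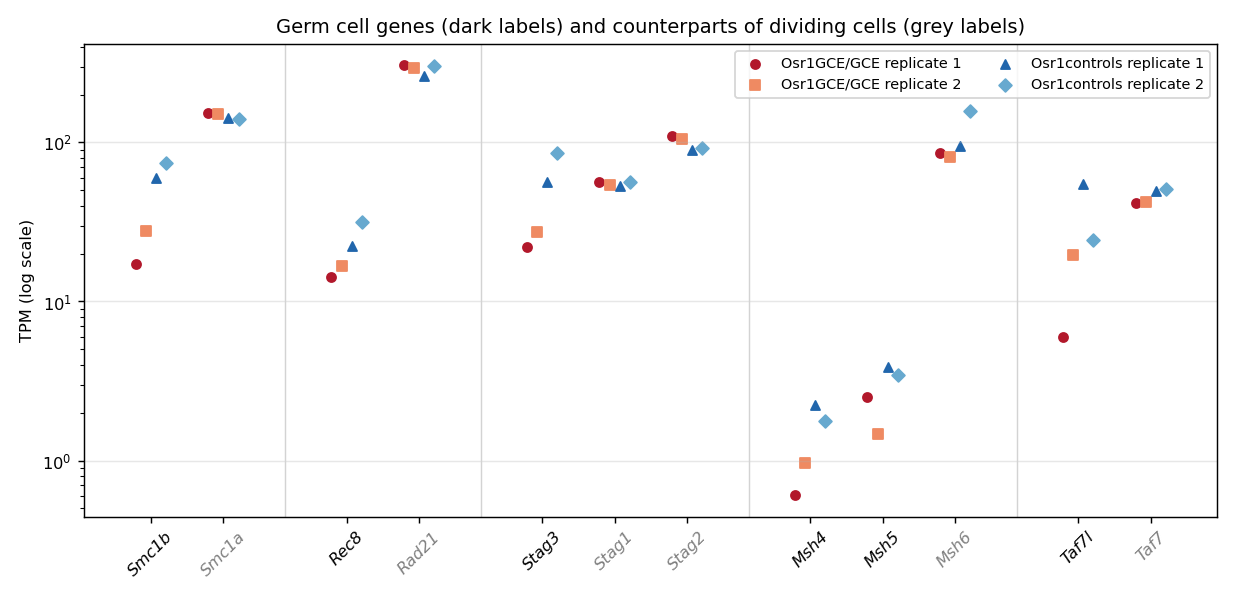
Level in TPM (log axis) of germ cell genes (dark labels) and counterparts of dividing cells (grey labels) in each library. Stag3 stands at 21.9 and 27.4 TPM in the libraries labelled Osr1GCE/GCE and 56.2 and 85.2 TPM in Osr1controls, and the 4 libraries lie close together for Stag1.

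Lists that the rule did not use, but that were drawn up with earlier results known, give the rest of the programme. Of 34 other meiotic genes, 8 were called lower and 0 higher (limma), against 1.75% and 1.13% of all tested genes. Their median log2 fold change was -1.28. The 3 with the smallest adjusted p were 4930447C04Rik, a gene of the synaptonemal complex, Ccdc155, which links telomeres to the cytoskeleton, and Terb2, which attaches them to the nuclear envelope. 4930447C04Rik had 376 and 488 normalized counts in the libraries labelled Osr1GCE/GCE and 969 and 1113 in Osr1controls (log2 fold change -1.28 ± 0.16, limma adjusted p = 0.0276). Ccdc155 had 16.3 and 32.2 normalized counts in the libraries labelled Osr1GCE/GCE and 98.3 and 87.9 in Osr1controls (log2 fold change -1.97 ± 0.36, limma adjusted p = 0.0377). Terb2 had 18.5 and 31.0 normalized counts in the libraries labelled Osr1GCE/GCE and 77.6 and 95.2 in Osr1controls (log2 fold change -1.80 ± 0.34, limma adjusted p = 0.0393). Without the first library labelled Osr1GCE/GCE, the median log2 fold change of the 34 was -0.91. Of 36 other germ cell genes tested, 6 were called lower, against 1.75% of all tested genes, and the median of the 36 was -0.74. Among the called genes Slc25a31, a germ cell ADP/ATP carrier, had 332 and 461 normalized counts in the libraries labelled Osr1GCE/GCE. It had 864 and 991 in Osr1controls (limma adjusted p = 0.0276). Tdrkh and Fkbp6 act in the piRNA pathway. Tdrkh had 401 and 507 normalized counts in the libraries labelled Osr1GCE/GCE and 877 and 1013 in Osr1controls (limma adjusted p = 0.0276). Fkbp6 had 446 and 429 normalized counts in the libraries labelled Osr1GCE/GCE and 806 and 1037 in Osr1controls (limma adjusted p = 0.0276). The median of the 36 genes was -1.16 without the first Osr1controls library and -0.36 without the second. Of 28 repressors of germ line genes, 0 were called by limma, 0 by edgeR and 1 in each direction by DESeq2, and their median was -0.01. In limma 7 of the 28 had an unadjusted p under 0.05, against 4169 of all 19479 tested genes.

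**Figure D4:**
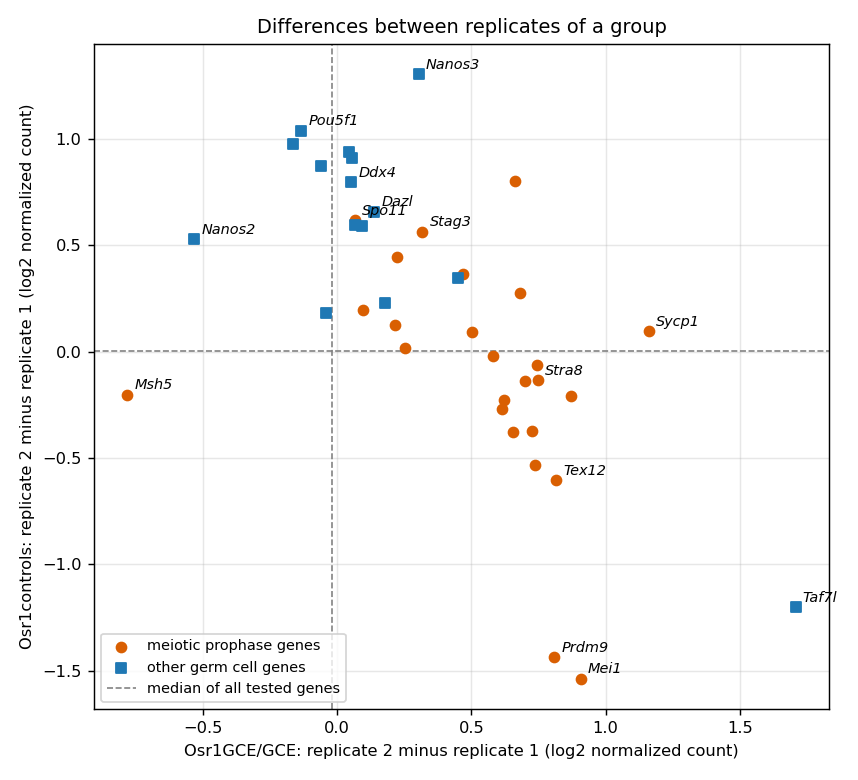
Difference between replicates of a group for each of the 40 genes, second minus first library on the log2 scale, for Osr1GCE/GCE across and for Osr1controls upward, with dashed lines at the median of all tested genes. Of the meiotic genes 24 of 25 lie right of 0, and 14 of the 15 other germ cell genes lie above 0.

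Differences between replicates were not used in choosing the genes, and they are given by class. In the libraries labelled Osr1GCE/GCE the second exceeded the first for 24 of 25 meiotic genes, by a median of 0.65 log2 units, and for 10 of the 15 others, by 0.06, where 46.5% of all tested genes did so. In Osr1controls the second exceeded the first for 11 of 25 meiotic genes, with a median of -0.06, and for 14 of 15 others, with a median of 0.66, where 50.5% of all tested genes did so. Msh5 was the meiotic gene that did not follow in the libraries labelled Osr1GCE/GCE, and Taf7l was the other gene that did not follow in Osr1controls. Among the 34 further meiotic genes the second library was higher for 29 in the libraries labelled Osr1GCE/GCE and for 16 in Osr1controls, and among the 36 further germ cell genes for 16 and for 28. Marker lists of other cell types also differed between replicates. Fibroblast markers were higher in the second library for 10 of 10 genes in the libraries labelled Osr1GCE/GCE (median 0.29) and for 0 of 10 in Osr1controls (median -0.36). Epithelial markers were higher in the second for 7 of 7 in the libraries labelled Osr1GCE/GCE (median 0.83) and for 3 of 7 in Osr1controls (median -0.19). In the same order, blood cell markers gave 0 of 8 (median -0.63) and 1 of 8 (median -0.14). Somatic gonad markers gave 4 of 16 (median -0.15) and 12 of 16 (median 0.14). Skeletal muscle markers gave 6 of 10 and 7 of 10, and LEC markers 2 of 5 and 5 of 5. Blood vessel endothelial markers gave 3 of 6 and 1 of 6, and neural and glial markers 2 of 6 and 1 of 6. The counts describe 4 libraries, no test was made of them, and the part of other cell types in them was not tested.

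The summed level of the 25 meiotic genes was 226 and 323 TPM in the libraries labelled Osr1GCE/GCE and 701 and 748 TPM in Osr1controls. Dazl and Ddx4 together had 144 and 156 TPM in the libraries labelled Osr1GCE/GCE, against 228 and 381 TPM in Osr1controls. Set over Dazl and Ddx4, a ratio chosen after seeing the values, the meiotic sum was 157% and 207% in the libraries labelled Osr1GCE/GCE and 308% and 196% in Osr1controls, so the groups overlapped. Stra8 over the same sum was 13.3% and 20.7% in the libraries labelled Osr1GCE/GCE, against 32.0% and 17.9% in Osr1controls, again with overlap. Nanos2 over the same sum was 2.04% and 1.29% in the libraries labelled Osr1GCE/GCE and 0.491% and 0.442% in Osr1controls, with no overlap. Dazl and Ddx4 were themselves lower in the libraries labelled Osr1GCE/GCE, which raises any ratio to them there. Nanos2 had only 45 and 27 reads in those libraries, against 25 and 25 in Osr1controls, and it was not called.

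**Figure D5:**
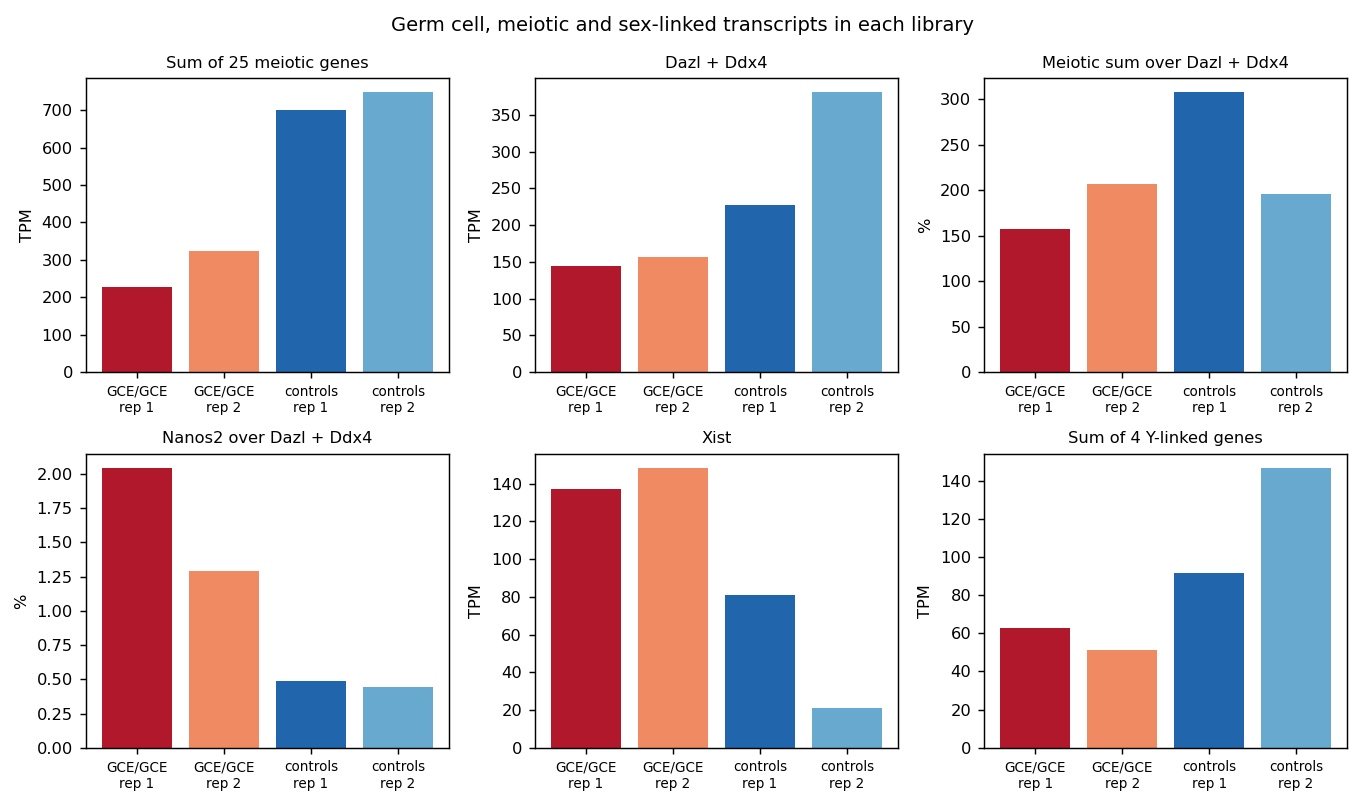
Bars give, for each library, the summed meiotic genes, Dazl plus Ddx4, Xist and 4 Y-linked genes in TPM, and the meiotic sum and Nanos2 as a percent of Dazl plus Ddx4. The meiotic sum is 226 and 323 TPM in the libraries labelled Osr1GCE/GCE and 701 and 748 TPM in Osr1controls, whereas its ratio to Dazl plus Ddx4 overlaps between groups.

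Sex-linked transcripts differed between libraries as well. Xist, the RNA of the inactive X chromosome, had 26159 and 28150.2 normalized counts in the libraries labelled Osr1GCE/GCE, against 14780.0 and 3779 in Osr1controls, and it was not called (limma adjusted p = 0.413). Uty, Ddx3y, Kdm5d and Eif2s3y lie on the Y chromosome. They summed to 62.7 and 51.4 TPM in the libraries labelled Osr1GCE/GCE, against 91.5 and 147 TPM in Osr1controls. By limma, Uty alone of these was called lower (log2 fold change -1.02 ± 0.19, limma adjusted p = 0.0418). Of the 5 sex-linked genes, Xist and these Y-linked genes, limma and edgeR each called 1 lower and DESeq2 called 4. Of all tested genes, these tools called 1.75%, 1.1% and 4.4% lower. In limma 4 of the 5 had an unadjusted p under 0.05, against 4169 of all 19479 tested genes. Both libraries labelled Osr1GCE/GCE thus had more Xist and less of the Y-linked genes than either of Osr1controls, and within Osr1controls the second library had the less Xist and the more Y-linked transcript. The part of the sex make-up of the pools in the differences above was not tested.

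Markers of the somatic gonad, tested as 16 of 19 listed genes, summed to 77.3 and 70.4 TPM in the libraries labelled Osr1GCE/GCE and 94.5 and 99.4 TPM in Osr1controls, and 1 was called, Gata4 with 109.7 and 99.1 normalized counts in the libraries labelled Osr1GCE/GCE, against 228 and 230.2 in Osr1controls (limma adjusted p = 0.0333). The other 3 (Insl3, Hsd3b1 and Hsd17b3) were under the filter, and no listed marker was at 0 in any library. Nr5a1, a defining factor of gonadal somatic cells, had 45.6 and 44.6 normalized counts in the libraries labelled Osr1GCE/GCE, against 41.3 and 84.8 in Osr1controls. Foxl2 of granulosa cells had 49.9 and 39.6 normalized counts in the libraries labelled Osr1GCE/GCE, against 81.9 and 28.3 in Osr1controls. Amh of Sertoli cells had 177 and 159 normalized counts in the libraries labelled Osr1GCE/GCE, against 66.9 and 153 in Osr1controls. None of these was called. Skeletal muscle markers were called lower for 5 of 10 genes and fibroblast markers for 2 of 10, where limma called 1.75% of all genes lower. EdgeR called 3 and 1 of them lower (1.1% of all genes) and DESeq2 called 7 and 6 (4.4% of all genes). In limma 8 of 10 genes of each list had an unadjusted p under 0.05, against 4169 of all 19479 tested genes. All 10 genes of each list had log2 fold changes below 0, where 52.8% of all tested genes did. The muscle markers summed to 132 and 141 TPM in the libraries labelled Osr1GCE/GCE, against 260 and 281 TPM in Osr1controls. The fibroblast markers summed to 1225 and 1438 TPM in the libraries labelled Osr1GCE/GCE, against 2402 and 1936 TPM in Osr1controls. Blood, neural and epithelial markers gave 0 calls of 8, 6 and 7 by limma and by edgeR and 0, 1 and 2 by DESeq2. In limma 0, 4 and 4 of them had an unadjusted p under 0.05, against 4169 of all 19479 tested genes. The part of these cell types in the germ cell differences was not tested.

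With 2 libraries a group, an exact permutation test cannot give a two-sided p below 0.333. Leaving out 1 library left a group with a lone library, assumed to vary like the rest. Calls among the meiotic genes then numbered 6 without the first library labelled Osr1GCE/GCE (0.0616% of all genes were called lower), 13 without the second (0.811%), 10 without the first Osr1controls library (3.06%) and 12 without the second (5.38%). Those among the other germ cell genes numbered 1, 2, 10 and 8 in the same settings. With the replicate number as a block, 11 meiotic and 6 other germ cell genes were called, against 0.493% of all genes. Sycp2, Tex12, Dmc1, Stra8, Hormad2 and Tex15 were then no longer called. Of the 15 meiotic calls 12 stayed under TMM scaling, 13 under library totals and 11 with edgeR. In these settings 1.19%, 2.46% and 1.1% of all genes were called lower. Smc1b and Stra8 lost their calls in each of them, Tex12 under TMM scaling and with edgeR, and Stag3 with edgeR. Without the trend and robust options of limma 0 were called, against 0% of all genes. The genes were chosen from this contrast, so how many stay called in any setting is not a test of it.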

How the data were processed

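LECs from pooled E13.5 embryos were sequenced in 4 libraries. By the study's methods the authors prepared TruSeq V2 libraries (strand use in counting is not stated), mapped reads to mm10 with STAR and counted them with featureCounts, whose versions the sources used here do not give. The authors deposited signal values, which are read counts divided by DESeq2 size factors, for 55385 IDs, of which 55144 were found in GENCODE release 21 and 241 were not. Of values above 0, 100% gave whole reads within 0.001, with size factors of 0.921 and 0.807 for Osr1GCE/GCE and 1.40 and 0.955 for Osr1controls. TPM came from normalized counts and exon lengths.

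Groups were compared with limma 3.58.1 (lmFit, eBayes with trend and robust options, R 4.3.3) on log2(normalized count + 1), which understates the change of low genes, where the mean was 10 or more. P-values were adjusted by Benjamini-Hochberg over 19479 genes, and the fold change and TPM thresholds are the study's. The members and the lists were chosen with earlier results of these data known. Named were all tested members, up to 3 called genes of the other germ line lists per direction with the smallest adjusted p, the counterparts of dividing cells (2 of which are not reported here) and the sample checks, and the ratios to Dazl and Ddx4 and to counterparts were added after seeing the data. The alternatives were a block for the replicate number, TMM, library totals, edgeR 4.0.16 and DESeq2 1.42.0 on the recovered reads (edgeR called 215 genes lower and 228 higher), limma without its 2 options, no filter, pseudocounts of 0.5 and 5, no TPM threshold and each library left out. Fits were tried on simulated data with 200 changed genes and the same spread setting for every gene. The simulation held no shift of a gene class between replicates, so it does not cover the replicate differences described above. RefSeq promoters were matched by symbol. Python 3.11.15 with matplotlib 3.10.9 drew the figures.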

Additional observations from a re-analysis of the deposited data

How the results depend on the processing

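Genes called lower (341) and higher (221) numbered 96 and 29 with the replicate number as a block, 857 and 678 with DESeq2, 0 and 0 with limma without trend and robust options (3425 genes had an unadjusted p under 0.05), 695 and 425 without a filter, and 12 to 1052 and 14 to 378 with 1 library left out. The count of lower genes was 215 with edgeR, which called 228 higher. Calls among the 25 meiotic genes (15) numbered 0 without trend and robust options and 6 to 13 with 1 library left out. Those among the 15 other germ cell genes (5) numbered 0 and 1 to 10. The 34 other meiotic genes (8 calls) gave 2 with the block, 4 with TMM, 4 with edgeR, 15 with DESeq2, 0 without trend and robust options and 0 to 12 with 1 library left out, and the other germ cell genes (6 calls) gave 15 with DESeq2, 0 without trend and robust options, 11 without a filter and 0 to 22 with 1 library left out. Replicate numbers pair no samples by the labels, and deviations of same-numbered libraries correlated at -0.118 over 19479 genes. A crossed pairing, chosen after seeing the data, gave 766 lower and 516 higher calls, 18 among the other meiotic genes. With the block 11 meiotic genes were called, 9 of the 15 and 2 more, and 6 other germ cell genes, the same 5 and 1 more. With 1 library left out the median of the other germ cell members (-1.02) ran from -1.36 to -0.62. The log2 fold change of Spo11 (-0.20) ran from -0.50 to 0.11 with 1 library left out, and that of Tdrd5 (0.01) from -0.43 to 0.45, and Tdrd5 had -0.061 with library totals, -0.037 with edgeR and -0.033 with DESeq2. The cause of these changes was not tested. Genes with few reads, such as Mei1 and Syce3, limit precision.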
